A study of Mus musculus with 9 samples.

Results

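The transcripts examined are those of 39 genes of fatty acid oxidation in the heart and of the PPAR target genes around it, taken by name from the 41710 gene names in the tables of reads and TPM (reads per transcript length, brought to an equal sum in every library). They fall into 6 roles: 7 genes of uptake and droplet supply, 7 of activation, thioesters and carnitine entry, 16 of beta-oxidation and electron transfer, 2 switch genes under PPAR control, 2 of ketone use and 5 regulators. All 39 passed the filter on low reads and were among the 15504 genes tested.

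The tables hold the heart transcriptome of 3 groups of 3 libraries each. All mice were male, of FVB/N background, aged 8 months and fed standard chow. Tg-RKIP mice carry a transgene for the Raf kinase inhibitor protein RKIP, encoded by Pebp1, which the study's text places under the alpha-MHC promoter, a promoter active in heart muscle cells. The label Tg-GRK2 stands for mice with a transgene for the G-protein-coupled receptor kinase GRK2, with a promoter that is not given in the sources used here, and FVB mice are non-transgenic. The study describes heart failure and cardiac lipid load in Tg-RKIP mice, and the comparison asks how the transcripts of the heart's main fuel pathway stand in these hearts. Pebp1 reached 16198.5 ± 208 TPM (SD, n = 3) in Tg-RKIP against 325 ± 4.54 TPM in FVB. The study reports a smaller fold increase of PEBP1-Pebp1 transcripts, and the reason for the difference was not tested. Grk2 stood at 27.3 ± 2.90 TPM in libraries labelled Tg-GRK2 and at 27.1 ± 1.05 TPM in FVB (edgeR log2 fold change 0.05 with an adjusted p of 0.354), so the label was not borne out by this gene and these libraries are named by their label throughout. The species of the transgene is not given in the sources used here, and one that the annotation does not cover would not show in this value.

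Long-chain fatty acids are freed from lipoproteins by lipoprotein lipase, taken up through CD36 and fatty acid transport proteins, bound in the cytosol by FABP3 and either stored in lipid droplets or joined to coenzyme A. The carnitine shuttle (CPT1 and CPT2) brings them into mitochondria, where each turn of beta-oxidation shortens the chain by a dehydrogenation, a hydration, a further dehydrogenation and a thiolytic cleavage, and electrons pass through ETF and its dehydrogenase to the respiratory chain. The nuclear receptors PPARalpha and PPARdelta, which bind DNA with a retinoid X receptor, and their coactivators of the PGC-1 family are the known transcriptional regulators of these genes, and fatty acids are the main fuel of the adult heart.

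PPARs are known to bind pairs of the hexamer AGGTCA in direct repeat with 1 base between them, and estrogen-related receptors an extended hexamer, TCAAGGTCA. Promoter sequences of 300 bases, from 250 before the transcription start to 50 after it, were found in RefSeq (GRCm38.p6) for 33 of the 39 genes, with 38 promoters in all, and were searched on both strands. The full repeat AGGTCANAGGTCA stood in 0 of the 38 promoters and in 0.0396% of all 32851 promoters of this length, and TCAAGGTCA in 0 of 38 and in 0.423%. With shares this low among all promoters, 0 of 38 does not set these genes apart. Inexact forms of the motifs and sequence outside these windows were not searched. The single hexamer, which is also part of both longer motifs, stood in 8 of 38 promoters, 21.1%, against 16.3% of all, and belonged to 7 genes: Acadm, Acadvl, Cd36, Cpt1a, Echs1, Plin5 and Ucp3. Shown are the promoter of Ucp3, 1 of the genes furthest below FVB in Tg-RKIP hearts, which holds the hexamer at -149 and -44 from the start, and those of the acyl-CoA dehydrogenases Acadvl (at -87) and Acadm (at -249, on the opposite strand), 5′ to 3′ along the gene, with the hexamer or its reverse complement in capitals. The windows are chr7:100472741-100473040 on the plus strand, chr11:70015379-70015678 on the minus strand and chr3:153944594-153944893 on the minus strand.
Ucp3: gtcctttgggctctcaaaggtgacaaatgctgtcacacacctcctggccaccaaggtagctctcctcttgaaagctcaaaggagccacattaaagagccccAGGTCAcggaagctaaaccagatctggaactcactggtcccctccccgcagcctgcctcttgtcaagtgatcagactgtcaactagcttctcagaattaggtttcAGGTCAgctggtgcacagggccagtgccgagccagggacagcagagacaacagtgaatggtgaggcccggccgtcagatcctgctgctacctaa
Acadvl: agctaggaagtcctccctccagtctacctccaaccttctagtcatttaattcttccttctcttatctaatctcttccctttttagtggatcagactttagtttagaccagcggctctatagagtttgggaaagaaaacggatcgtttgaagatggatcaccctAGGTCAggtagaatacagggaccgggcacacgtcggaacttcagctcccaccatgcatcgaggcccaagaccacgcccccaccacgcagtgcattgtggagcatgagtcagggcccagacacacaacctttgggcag
Acadm: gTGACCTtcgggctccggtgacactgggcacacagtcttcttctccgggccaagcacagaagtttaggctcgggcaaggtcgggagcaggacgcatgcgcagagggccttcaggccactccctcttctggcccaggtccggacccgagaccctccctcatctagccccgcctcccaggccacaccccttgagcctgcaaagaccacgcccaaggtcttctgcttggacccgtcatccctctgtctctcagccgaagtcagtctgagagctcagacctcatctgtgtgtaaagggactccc
Matches of letters are a description of these windows, and whether a receptor binds there was not tested.

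The libraries held 25458108 to 33447654 reads. Libraries of the same group differed little, with a biological coefficient of variation of 1.90% in Tg-RKIP, 3.69% in libraries labelled Tg-GRK2 and 2.13% in FVB, and nothing in the labels says more than that they are numbered hearts, so p-values measure the spread between these libraries, which may be technical. Mitochondrially encoded genes took 11.7% ± 0.156 of reads in Tg-RKIP, 22.6% ± 0.299 in libraries labelled Tg-GRK2 and 23.1% ± 0.158 in FVB, and 20.7%, 38.1% and 38.1% of TPM. Over all genes tested the median change of Tg-RKIP against FVB was 0.0085 (log2) in reads normalized by TMM, which sets the bulk of genes equal between libraries, and 0.45 in TPM. In log2(TPM + 1) rescaled without the mitochondrially encoded genes it was 0.07. Changes are therefore read against these medians. All 10 cardiomyocyte markers were present, with a summed 49269 to 50268 TPM in Tg-RKIP and 50570 to 50870 TPM in FVB, but a mean sum of 1178730 normalized reads in Tg-RKIP against 1910850 in FVB. In bulk tissue, fewer cells of a type and less RNA per cell cannot be told apart.

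In Tg-RKIP hearts all 39 genes fell relative to FVB in normalized reads (edgeR's quasi-likelihood test, Benjamini-Hochberg adjusted p under 0.05), and none rose. Among all genes tested, 37.1% were lower and 36.8% higher by the same test, 73.9% in all. DESeq2 gave the same counts for the 39 genes, beside 20.3% lower and 19.8% higher among all genes it tested. Scaled by library size only, 34 of the 39 were lower and 3 higher, beside 17.1% and 62.6% of all genes. The median log2 fold change of the 39 genes was -1.09, and 24 of them were lower by 1 or more, as were 6.12% of all genes tested. In TPM, 34 genes lay below FVB in all libraries without overlap and 3 above, beside 14.4% and 64.3% of all genes, and their median log2 ratio was -0.67 where that of all genes was 0.45. Summed over the 39 genes, the level was 13051, 13012 and 13057 TPM in the Tg-RKIP libraries, 18689, 19105 and 18843 TPM in those labelled Tg-GRK2 and 19944, 20111 and 19906 TPM in FVB. The Tg-RKIP libraries were the lowest, those labelled Tg-GRK2 lay between, and no group overlapped another.

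**Figure D1:**
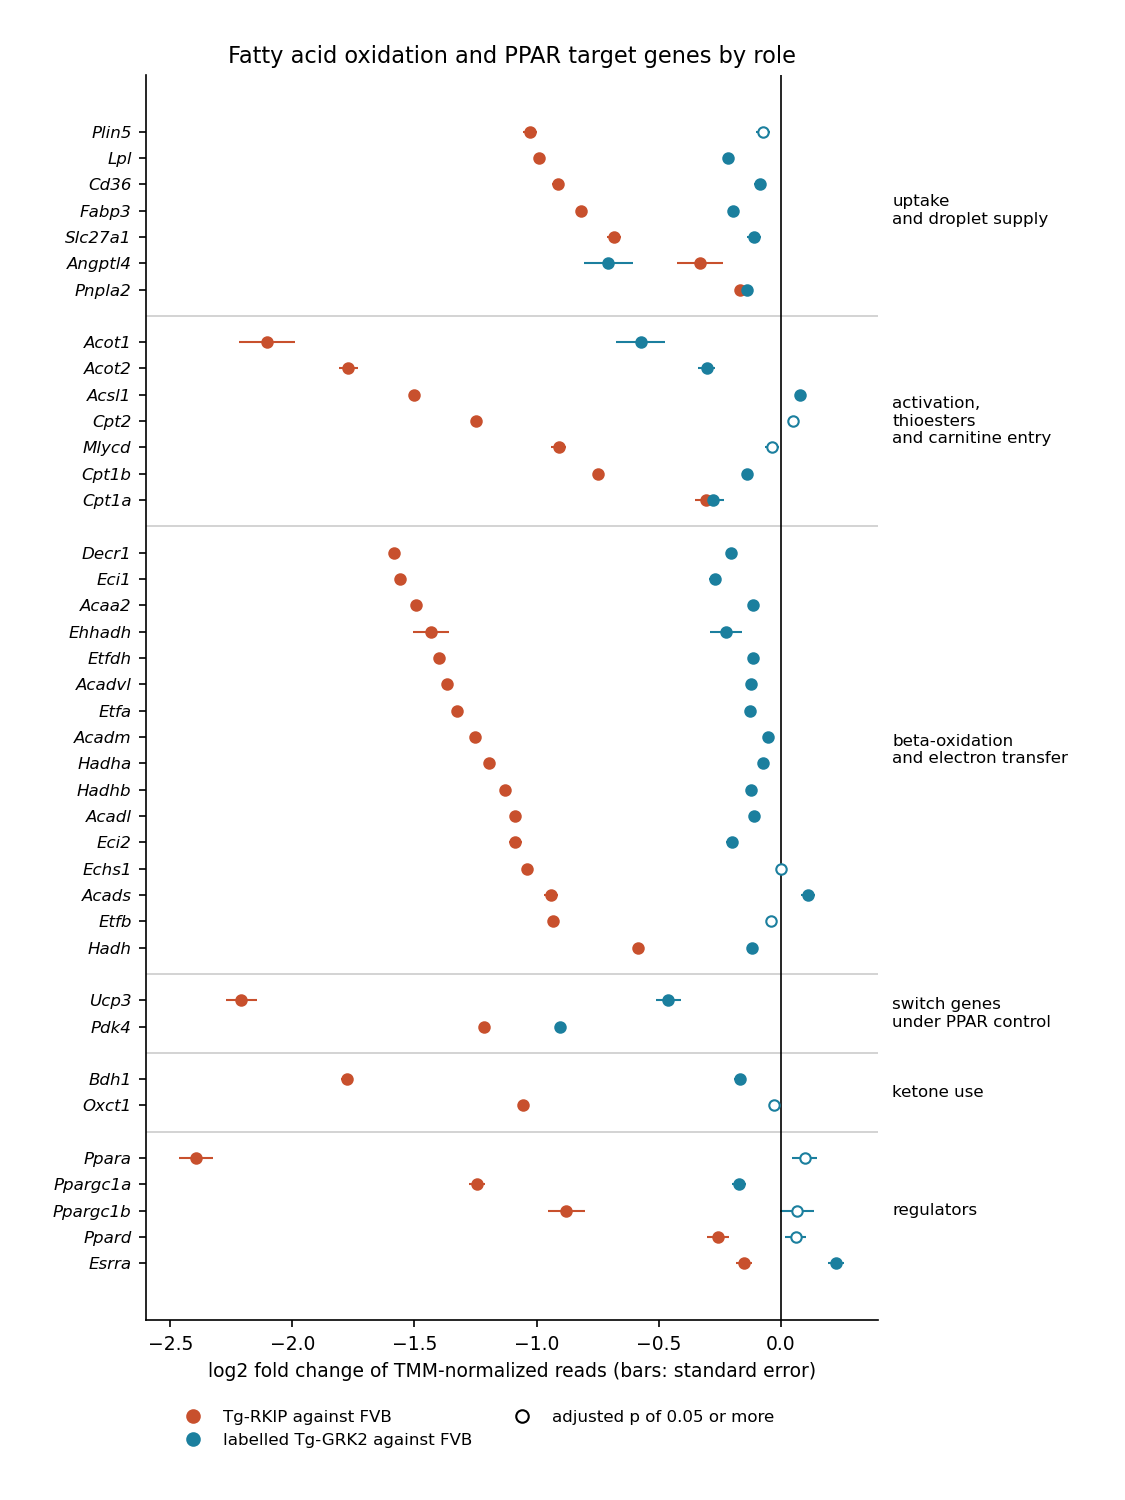
The log2 fold change of TMM-normalized reads (horizontal axis, bars show the standard error) of the 39 genes, ordered within their roles, for Tg-RKIP against FVB and for the libraries labelled Tg-GRK2 against FVB, with 3 libraries per group and open circles for an adjusted p of 0.05 or more. All 39 Tg-RKIP values lie below 0, down to -2.39 for Ppara, while on the TPM scale Angptl4, Cpt1a, Esrra, Pnpla2 and Ppard lie above 0, and the values of the libraries labelled Tg-GRK2 lie between -0.91 and 0.23.

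The regulators held the gene with the lowest fold change of the 39. Ppara (GRCm39, chr15:85619184-85687020, plus strand) encodes PPARalpha, the receptor that binds fatty acids and activates the genes of their oxidation. Its level was 3.38, 4.06 and 3.39 TPM in the Tg-RKIP libraries, 16.9, 15.3 and 16.0 TPM in those labelled Tg-GRK2 and 14.3, 14.3 and 15.6 TPM in FVB. All Tg-RKIP libraries were far below the others, while those labelled Tg-GRK2 and FVB overlapped. The log2 fold change was -2.39 ± 0.0685 (SE) in Tg-RKIP against FVB, a 5.26-fold lower level in normalized reads (adjusted p = 2.87e-18, edgeR's quasi-likelihood test), and 0.10 ± 0.0518 in the libraries labelled Tg-GRK2 (adjusted p = 0.194). In FVB, Ppara ranked 34th of the 39 genes by TPM and in Tg-RKIP 38th.

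The coactivator Ppargc1a, which encodes PGC-1alpha, stood at 16.3 ± 0.804 TPM in Tg-RKIP against 29.2 ± 0.936 TPM in FVB, and fell by 1.24 ± 0.0311 on the log2 scale of normalized reads. Ppargc1b, for the related PGC-1beta, fell by 0.88 ± 0.0776, with 3.97, 5.08 and 4.13 TPM in Tg-RKIP against 6.03, 6.49 and 6.08 TPM in FVB. Both were without overlap between these groups. The other two regulators depended on the scale. Ppard, for PPARdelta, was lower in normalized reads (log2 fold change -0.26) and higher in TPM (13.1 ± 0.285 against 11.7 ± 0.561), and Esrra, for the estrogen-related receptor ERRalpha, was lower in normalized reads (-0.15) and higher in TPM (78.3 ± 1.48 against 66.9 ± 4.98). Of the 3 receptor genes, Ppara had the lowest value on either scale.

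The switch genes are known PPAR targets that act on how mitochondria use fuel. Ucp3, a mitochondrial carrier raised by fatty acids and fasting in muscle, had 6.0, 5.18 and 5.05 TPM in the Tg-RKIP libraries, 14.5, 14.4 and 13.4 TPM in those labelled Tg-GRK2 and 19.3, 19.2 and 17.6 TPM in FVB. The 3 groups did not overlap, with Tg-RKIP lowest and FVB highest. In normalized reads Ucp3 (GRCm39, chr7:100122197-100135639, plus strand) was 4.62-fold lower in Tg-RKIP than in FVB (-2.21 ± 0.063 on the log2 scale, adjusted p = 2.71e-18 by edgeR) and 1.38-fold lower in the libraries labelled Tg-GRK2 (-0.46 ± 0.0523, adjusted p = 8.38e-07).

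Pdk4 encodes the pyruvate dehydrogenase kinase that blocks glucose oxidation when fat is plentiful. It stood at 93.8, 89.8 and 88.8 TPM in Tg-RKIP, at 86.9, 87.5 and 87.3 TPM in libraries labelled Tg-GRK2 and at 160.3, 157.0 and 155.4 TPM in FVB. The Tg-RKIP libraries and those labelled Tg-GRK2 all lay far below FVB. Its log2 fold change was -1.21 ± 0.020 in Tg-RKIP against FVB and -0.91 ± 0.0199 for the libraries labelled Tg-GRK2, where it was the lowest of the 39 (adjusted p = 8.50e-19 by edgeR). Against the libraries labelled Tg-GRK2, Pdk4 was lower in Tg-RKIP in normalized reads (-0.31, adjusted p = 8.53e-12 by edgeR) and higher in TPM.

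**Figure D2:**
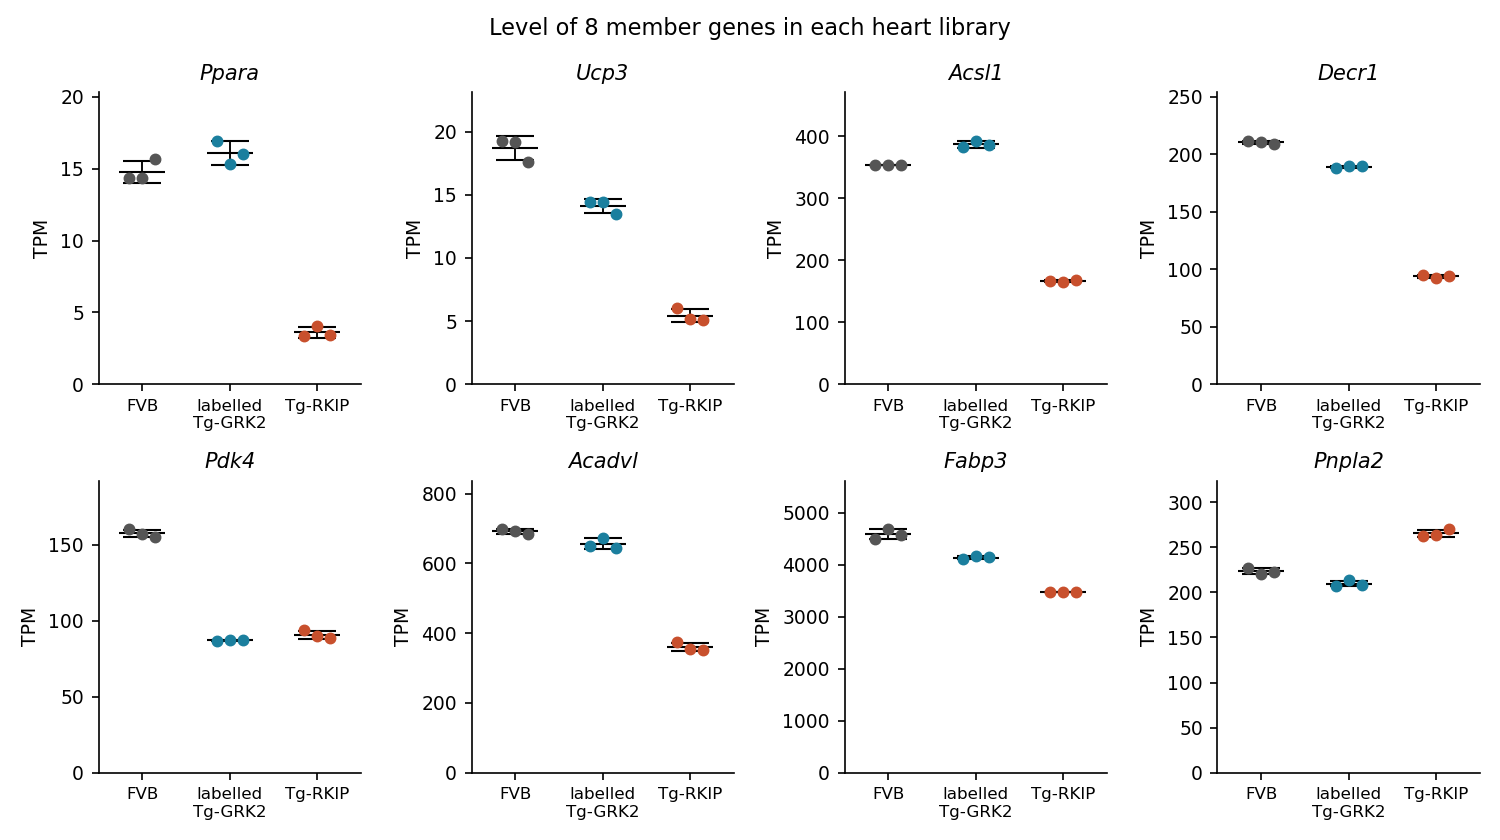
The level in TPM (vertical axis, from 0) of 8 genes in each library, with points for the 3 libraries of a group and bars for the mean ± SD. Ppara and Acsl1 are low in Tg-RKIP only, Ucp3 and Decr1 step down from FVB through the libraries labelled Tg-GRK2 to Tg-RKIP, Pdk4 is low in all libraries but those of FVB, and Pnpla2 is highest in Tg-RKIP in TPM although below FVB there in normalized reads.

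Of the activation, thioester and carnitine genes, 7 of 7 fell in Tg-RKIP hearts, beside 37.1% of all genes tested. Their median log2 fold change was -1.25, and their summed level was 538 ± 7.36 TPM against 886 ± 4.01 TPM in FVB. Acsl1 (GRCm39, chr8:46924074-46989088, plus strand), the main long-chain acyl-CoA synthetase of the heart, stood at 167.1, 164.6 and 168.0 TPM in Tg-RKIP, 381.7, 392.5 and 386.2 TPM in libraries labelled Tg-GRK2 and 352.7, 352.9 and 354.1 TPM in FVB. Tg-RKIP libraries were below and libraries labelled Tg-GRK2 above FVB, with no overlap. Its log2 fold change was -1.50 ± 0.0174 in Tg-RKIP (adjusted p = 4.57e-25) and 0.08 ± 0.0169 in the libraries labelled Tg-GRK2 (adjusted p = 0.00154, both from edgeR's quasi-likelihood test).

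The carnitine steps had fold changes of different size. Cpt2, the inner membrane carnitine palmitoyltransferase, fell by 1.25 ± 0.0216 (log2) and Cpt1b, the muscle form of the outer membrane enzyme, by 0.75 ± 0.0183. Cpt1b had 231.6, 221.5 and 225.3 TPM in Tg-RKIP against 281.6, 286.5 and 287.4 TPM in FVB. Cpt1a, the form best known from liver, was expressed at 14.99 ± 0.891 TPM in Tg-RKIP against 13.9 ± 0.423 TPM in FVB with overlapping libraries, and it was lower in normalized reads (-0.31 ± 0.0454). In FVB the level of Cpt1b per transcript length was thus far above that of Cpt1a. Mlycd, whose malonyl-CoA decarboxylase removes the inhibitor of CPT1, fell by 0.91 ± 0.0309, from 56.3 ± 1.03 to 40.1 ± 1.35 TPM.

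Acot1 and Acot2 encode acyl-CoA thioesterases of cytosol and mitochondria and are neighbours on the plus strand of chromosome 12 (GRCm39, chr12:84056264-84065145 and chr12:84034635-84040647). Acot1 had 3.83, 5.80 and 5.36 TPM in Tg-RKIP, 8.85, 10.6 and 12.4 TPM in libraries labelled Tg-GRK2 and 16.3, 14.3 and 14.9 TPM in FVB. Acot2 had 16.8, 15.4 and 16.7 TPM, 33.7, 35.6 and 35.2 TPM and 41.2, 41.3 and 42.0 TPM in the same order. The 3 groups did not overlap for either gene, with Tg-RKIP lowest. In normalized reads Acot1 fell by 2.10 ± 0.115 and Acot2 by 1.77 ± 0.0389 (log2) in Tg-RKIP, and by 0.57 ± 0.0987 and 0.30 ± 0.0343 in the libraries labelled Tg-GRK2.

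The 2 genes are close copies, so how their reads were split bears on these values. Over 1236 aligned coding bases of their GENCODE M21 transcripts they were 95.3% identical, with an identical run of 273 bases, longer than the reads of 50 bases. The pair of 60-base stretches where the alignment differs most, at 13 positions in capitals, shows where a read can be given to 1 gene. They start at coding base 823 of Acot1 and 946 of Acot2.
Acot1: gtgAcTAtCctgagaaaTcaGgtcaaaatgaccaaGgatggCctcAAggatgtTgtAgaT
Acot2: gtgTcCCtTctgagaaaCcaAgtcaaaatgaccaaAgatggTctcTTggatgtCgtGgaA
Reads of both genes summed gave a log2 fold change of -1.81 in Tg-RKIP against FVB and -0.34 for the label Tg-GRK2 against FVB, so the sum fell in both, whatever the split.

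All 16 genes of beta-oxidation and electron transfer fell in Tg-RKIP hearts, where 37.1% of all genes tested were lower. Their log2 fold changes ran from -1.58 to -0.58, with a median of -1.22 in normalized reads. In TPM all 16 were below FVB without overlap, beside 14.4% of all genes. Their sum was 5961, 5936 and 5985 TPM in Tg-RKIP, 9646, 9903 and 9667 TPM in libraries labelled Tg-GRK2 and 10094, 10146 and 10041 TPM in FVB.

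The first dehydrogenation is made by enzymes that differ in chain length. Acadvl (very long chain) stood at 374, 355 and 352 TPM in Tg-RKIP against 698, 693 and 684 TPM in FVB, and fell by 1.37 ± 0.0189 on the log2 scale of normalized reads (adjusted p = 7.19e-24 by edgeR). Acadm (medium chain) fell by 1.25 ± 0.0178, with 589, 593 and 602 TPM in Tg-RKIP against 1196, 1192 and 1150 TPM in FVB. Acadl (long chain) fell by 1.09 ± 0.0165 and Acads (short chain) by 0.94 ± 0.0289. For each of the 4 genes every Tg-RKIP library was below every FVB library.

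The later steps fell too. Hadha and Hadhb, the 2 subunits of the trifunctional protein that hydrates, oxidises and cleaves long chains, lie head to head on chromosome 5 and fell by 1.19 ± 0.0155 and 1.13 ± 0.0153 (log2). Echs1, the short-chain hydratase, fell by 1.04 ± 0.0195 and the mitochondrial thiolase Acaa2 by 1.49 ± 0.0166. Hadh, the 3-hydroxyacyl-CoA dehydrogenase of shorter chains, changed least of the 16, at 166.7, 167.0 and 162.4 TPM in Tg-RKIP against 188.5, 182.1 and 184.7 TPM in FVB (log2 fold change -0.58 ± 0.020 in normalized reads).

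The auxiliary enzymes for unsaturated fatty acids held the lowest fold changes of the role. Decr1, the 2,4-dienoyl-CoA reductase, stood at 95.1, 92.6 and 94.2 TPM in Tg-RKIP, 187.7, 189.3 and 189.4 TPM in libraries labelled Tg-GRK2 and 211.6, 210.5 and 208.8 TPM in FVB. The 3 groups were apart, and its fold change in Tg-RKIP was -1.58 ± 0.0185 (log2, adjusted p = 5.09e-25 by edgeR). The enoyl-CoA isomerases Eci1 and Eci2 fell by 1.56 ± 0.0238 and 1.09 ± 0.0255. Ehhadh, a peroxisomal bifunctional enzyme and a classical PPARalpha target in liver, was the lowest expressed of the role at 6.13 ± 0.0168 TPM in FVB, and fell by 1.43 ± 0.0724 to 3.04 ± 0.165 TPM.

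Of the electron transfer genes, Etfa fell by 1.33 ± 0.0183, Etfb by 0.93 ± 0.0197 and Etfdh, which passes the electrons to ubiquinone, by 1.40 ± 0.0167 (log2). Etfa and Etfb encode the 2 subunits of 1 flavoprotein, and Etfa went from 887 ± 14.1 to 476 ± 4.35 TPM and Etfb from 728 ± 14.0 to 517 ± 19.1 TPM. In FVB Etfa was thus above Etfb per transcript length, and in Tg-RKIP below it, without overlap of the libraries in either group, though part of the Etfb transcript is shared with another gene (given at the end).

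The genes of uptake and droplet supply fell less, with a median log2 fold change of -0.82 for 7 of 7 genes, beside 37.1% of all genes tested that were lower. Fabp3, the fatty acid binding protein of heart, ranked first of the 39 by TPM in each group, with 3475, 3471 and 3477 TPM in Tg-RKIP, 4105, 4164 and 4157 TPM in libraries labelled Tg-GRK2 and 4496, 4688 and 4578 TPM in FVB. The groups stepped down without overlap from FVB to Tg-RKIP (log2 fold change -0.82 ± 0.0166, adjusted p = 6.07e-21 by edgeR).

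Lpl, lipoprotein lipase, ranked second and fell by 0.99 ± 0.0121, from 1947 ± 12.98 to 1310 ± 1.81 TPM. The fatty acid translocase Cd36 fell by 0.91 ± 0.0227, from 1016 ± 23.3 to 702 ± 16.3 TPM, and the transport protein Slc27a1 by 0.68 ± 0.0292. Plin5, a coat protein that tethers droplets to mitochondria, fell by 1.03 ± 0.0299. All 4 were below FVB in every Tg-RKIP library in TPM as well.

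The remaining uptake and droplet genes flipped with the scale. Pnpla2, adipose triglyceride lipase, the first lipase of the droplet, was 1.12-fold lower in Tg-RKIP in normalized reads (-0.17 ± 0.0203). Summed over its transcripts it was higher in TPM, with 262.5, 263.5 and 270.0 TPM against 227.5, 220.1 and 223.0 TPM in FVB. Its transcript Pnpla2_6, annotated for nonsense-mediated decay, stood at 52.9 ± 1.17 TPM in Tg-RKIP against 20.9 ± 5.95 TPM in FVB. The most abundant coding form Pnpla2_4 stood at 55.8 ± 5.93 against 55.9 ± 7.13 TPM. Pnpla2_3, annotated like Pnpla2_6, held 59.5% ± 1.7 of Pnpla2 reads in Tg-RKIP and 66.8% ± 5.5 in FVB. Angptl4, a secreted inhibitor of lipoprotein lipase and a PPAR target, was lower in normalized reads (-0.33 ± 0.0927) and overlapped between Tg-RKIP and FVB in TPM. With the mitochondrially encoded genes left out and TPM rescaled, the log2 ratios of Pnpla2, Angptl4, Cpt1a, Ppard and Esrra were -0.11, -0.25, -0.24, -0.19 and -0.13. On that scale 38 of the 39 genes were lower in every Tg-RKIP library than in every FVB library, 1 (Esrra) overlapped and none was higher. This rescaling moves all genes of a library by the same factor, and the cause of the flip was not tested.

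**Figure D3:**
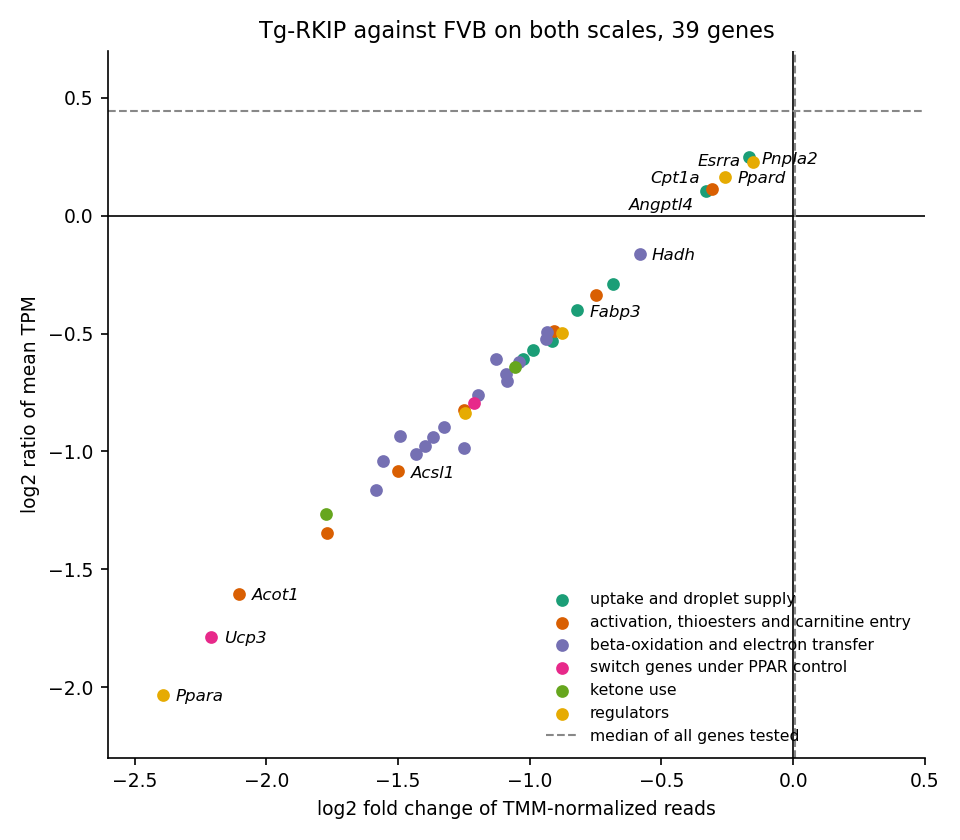
Each of the 39 genes by its log2 fold change in TMM-normalized reads (horizontal axis) and its log2 ratio of mean TPM (vertical axis) in Tg-RKIP against FVB, coloured by role, with 3 libraries per group and dashed lines at the medians of all genes tested. All 39 lie left of 0 and below the dashed line at 0.45, and Angptl4, Cpt1a, Esrra, Pnpla2 and Ppard lie above 0 in TPM.

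Both genes of ketone use fell in Tg-RKIP, where 37.1% of all genes tested were lower. Bdh1, 3-hydroxybutyrate dehydrogenase, which turns hydroxybutyrate into acetoacetate in the heart, had 62.4, 59.7 and 62.0 TPM in Tg-RKIP, 141.9, 138.7 and 132.4 TPM in libraries labelled Tg-GRK2 and 143.8, 153.8 and 145.0 TPM in FVB. Its level in Tg-RKIP was far below both other groups, 3.42-fold lower than FVB in normalized reads (log2 fold change -1.78 ± 0.0255, adjusted p = 1.42e-23 by edgeR). Oxct1, the transferase that activates acetoacetate, fell by 1.06 ± 0.0157, from 644 ± 5.75 to 413 ± 2.79 TPM.

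The libraries labelled Tg-GRK2 differed far less from FVB. By edgeR's quasi-likelihood test 27 of the 39 genes were lower and 3 higher, and 9 did not pass, while 12.2% of all genes tested were lower and 12.2% higher. The median log2 fold change of the 39 was -0.12 and that of all genes -0.0023, and none of the 39 was lower by 1 or more, against 0.651% of all genes. In TPM 24 were lower and 8 higher without overlap, beside 10.8% and 22.9% of all genes. Of the changes, that of Pdk4 passed a test for a fold change of at least 1.5, and it was the only one.

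After Pdk4, the lowest fold changes in these libraries were those of Angptl4 (-0.71 ± 0.10), Acot1 (-0.57), Ucp3 (-0.46) and Acot2 (-0.30). Angptl4 had 3.20, 2.97 and 3.19 TPM against 4.89, 4.46 and 4.62 TPM in FVB and 5.38, 5.19 and 4.47 TPM in Tg-RKIP. The libraries labelled Tg-GRK2 were lowest, and Angptl4 was the 1 gene of the 39 that was higher in Tg-RKIP than in them by the test (log2 fold change 0.38 ± 0.10, adjusted p = 0.00198 by edgeR). The 3 genes that rose were Esrra (0.23 ± 0.0337), Acads (0.11 ± 0.0277) and Acsl1. Acadm was lower in normalized reads (-0.05, adjusted p = 0.0361 by edgeR) and higher in TPM. The lower call was lost when any library labelled Tg-GRK2 or FVB replicate 2 or 3 was left out. The short retained-intron transcript Acadm_2 took 4.99% ± 0.749 of Acadm reads in these libraries, 3.71% ± 0.809 in FVB and none in Tg-RKIP. Another such form, Acadm_4, took 1.92% ± 0.543, 0.806% ± 0.199 and none. Acadm_2 and Acadm_4 stood at 156 and 129 TPM in these libraries against 116 and 53.8 TPM in FVB. The main coding form Acadm_8 stood at 981 ± 15.9 against 1007 ± 21.8 TPM.

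Set directly against each other, 36 of the 39 genes were lower in Tg-RKIP than in the libraries labelled Tg-GRK2 by edgeR's test, 1 was higher and 2 (Pnpla2 and Cpt1a) did not pass, where 36.6% of all genes tested were lower and 37.9% higher, 74.5% in all. The median was -1.03, and 21 of the 39 were lower by 1 or more, against 6.91% of all genes. In TPM 33 were lower and 4 higher without overlap, beside 16.9% and 61.6% of all genes. The largest differences were those of Ppara (-2.49 ± 0.0671), Ucp3 (-1.75 ± 0.066), Bdh1 (-1.61 ± 0.0255), Acsl1 (-1.58 ± 0.0174) and Acot1 (-1.53 ± 0.122). The comparisons with FVB share the FVB libraries, so their values are given side by side and no relation between them is drawn.

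Of 71 further genes of the same pathways, 49 were lower and 11 higher in Tg-RKIP against FVB, with a median log2 fold change of -0.43 in normalized reads, where 37.1% of all genes tested were lower and 36.8% higher. In TPM 30 of the 71 were lower and 32 higher without overlap, beside 14.4% and 64.3% of all genes. The 10 other beta-oxidation genes, which include the peroxisomal thiolase Acaa1a, had a median of -0.75, with 8 lower and 1 higher. The 17 other regulators had a median of -0.61 with 12 lower and 2 higher, the 13 other activation and carnitine genes -0.39 with 10 lower and 2 higher, and the 11 peroxisomal genes -0.35 with 8 lower and 1 higher. The 4 other ketone genes had a median of -0.47 with 3 lower and 1 higher, and the 16 other uptake and droplet genes -0.08 with 8 lower and 4 higher. In TPM 9 of these 16 were higher and 5 lower without overlap, with a median log2 ratio of 0.28.

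The lowest of these in Tg-RKIP were Hsdl2 (-1.69 ± 0.0207), the dienoyl-CoA isomerase Ech1 (-1.62), the mitochondrial acetyl-CoA synthetase Acss1 (-1.53), the PPAR partner Rxrg (-1.48) and the mitochondrial acetoacetyl-CoA thiolase Acat1 (-1.44). The highest with at least 100 reads were Cpt1c (1.11 ± 0.161), the carnitine palmitoyltransferase form known from brain, the acyl-CoA synthetase Acsl5 (0.48), the droplet protein Hilpda (0.41), Fabp5 (0.36) and Acad10 (0.32). In the libraries labelled Tg-GRK2, 18 of the 71 were lower and 11 higher with a median of -0.01, beside 12.2% lower and 12.2% higher among all genes. Among the lowest there were G0s2 (-0.55), an inhibitor of the lipase Pnpla2 encodes, and Gpihbp1 (-0.47), the capillary anchor of lipoprotein lipase, followed by Fabp4 (-0.29) and Dgat2 (-0.22). Among the highest were Lpin1 (0.24), Prkaa2 (0.22) and Rxra (0.14).

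Markers of other cell types differed between the groups. In Tg-RKIP against FVB, 36.8% of all genes tested were higher and 37.1% lower, and the median log2 TPM ratio of all genes was 0.45. Of 10 cardiomyocyte markers, 8 were lower and 1 higher, with a median log2 fold change of -0.67 in normalized reads and a median log2 ratio of -0.12 in TPM. The medians of the 39 genes lay 0.42 and 0.55 below those medians, with 33 and 34 genes below the marker median. The markers themselves ranged from -2.07 to 0.26 in normalized reads, and Ryr2 (-2.07), Myh6 (-1.35), Pln (-1.34) and Ttn (-1.10) fell further than the median of the 39 genes. All 10 white adipocyte markers were higher (median 2.41, summed 1053 to 1074 TPM against 628 to 655 TPM in FVB), as were 8 of 8 fibroblast markers (1.43, 2793 to 2816 TPM against 984 to 1021 TPM) and 6 of 6 macrophage markers (1.00, 347 to 351 TPM against 131 to 135 TPM). Fabp4 held most of the white adipocyte sum, at 855 ± 12.7 against 599 ± 15.5 TPM, while Adipoq stood at 28.2 against 3.04 TPM. Of 6 endothelial markers 3 were higher and 3 lower, with a sum that was higher in TPM (343 to 346 against 270 to 274) and lower in normalized reads (a mean of 16952 against 19829). Their median log2 TPM ratio was 0.23, below that of all genes. Lpl, Cd36, Pnpla2, Plin5 and Angptl4 are also expressed outside heart muscle cells, adipocytes among them, and the part of these cells in the values above was not tested.

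In the libraries labelled Tg-GRK2 such markers differed from FVB too, where 12.2% of all genes tested were higher and 12.2% lower. Of the 10 white adipocyte markers 5 were higher and 1 lower, with a median log2 fold change of 0.82 and a sum of 545 to 580 TPM, below that of FVB. Fabp4 held most of that sum, at 507 ± 16.7 TPM against 599 ± 15.5 TPM in FVB. Adipoq, the adipocyte hormone adiponectin, was higher by 0.95, the droplet protein of adipocytes Plin1 by 1.32, Cidec by 1.23 and the receptor Adrb3 by 2.55. Of the 8 fibroblast markers 5 were higher (median 0.28, 1123 to 1136 TPM), with the collagens Col1a1 at 0.61 and Col3a1 at 0.76. The other 3 did not pass. These were Dcn (a mean of 25139 normalized reads against 25589 in FVB), Tcf21 (353 against 366) and Postn (2399 against 2397). Of 6 macrophage markers 2 were higher (0.10, 142 to 146 TPM). Of the 10 cardiomyocyte markers 4 were higher and 6 lower, with a median of -0.06. The part of these cells in the 27 lower and 3 higher genes above was not tested.

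Of 8 brown adipocyte markers, which include Ppargc1a, 7 were tested, with 4 higher and 3 lower and a sum of 2085 to 2264 TPM in Tg-RKIP against 2346 to 2716 TPM in FVB. The 4 were Ucp1 (13.4 ± 0.511 against 1.18 ± 0.237 TPM), the uncoupling protein of brown fat, Dio2 (2.67 against 0.611 TPM), Otop1 (1.08 against 0.138 TPM) and Cidea. The sum was held mostly by Cox7a1 (1071 against 1546 TPM) and Cox8b (997 against 964 TPM, lower in normalized reads), respiratory chain subunits. In the libraries labelled Tg-GRK2, 2 of the 7 were higher than in FVB and 3 lower in normalized reads, and 2 did not pass (Cidea at -0.12 and Dio2 at 0.26). Ucp1 (6.01 ± 0.698 TPM, log2 fold change 2.28) and Otop1 (1.93) were higher, and Cox7a1 (-0.16), Cox8b (-0.22) and Ppargc1a (-0.17) were lower. Airway epithelium markers, which heart tissue lacks, summed to 87.6 to 94.1 TPM in Tg-RKIP and 189 to 199 TPM in the libraries labelled Tg-GRK2 against 0.252 to 0.442 TPM in FVB, where Scgb1a1, Scgb3a2, Sftpc and Bpifa1 had no read. The part of such tissue in the values above was not tested.

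**Figure D4:**
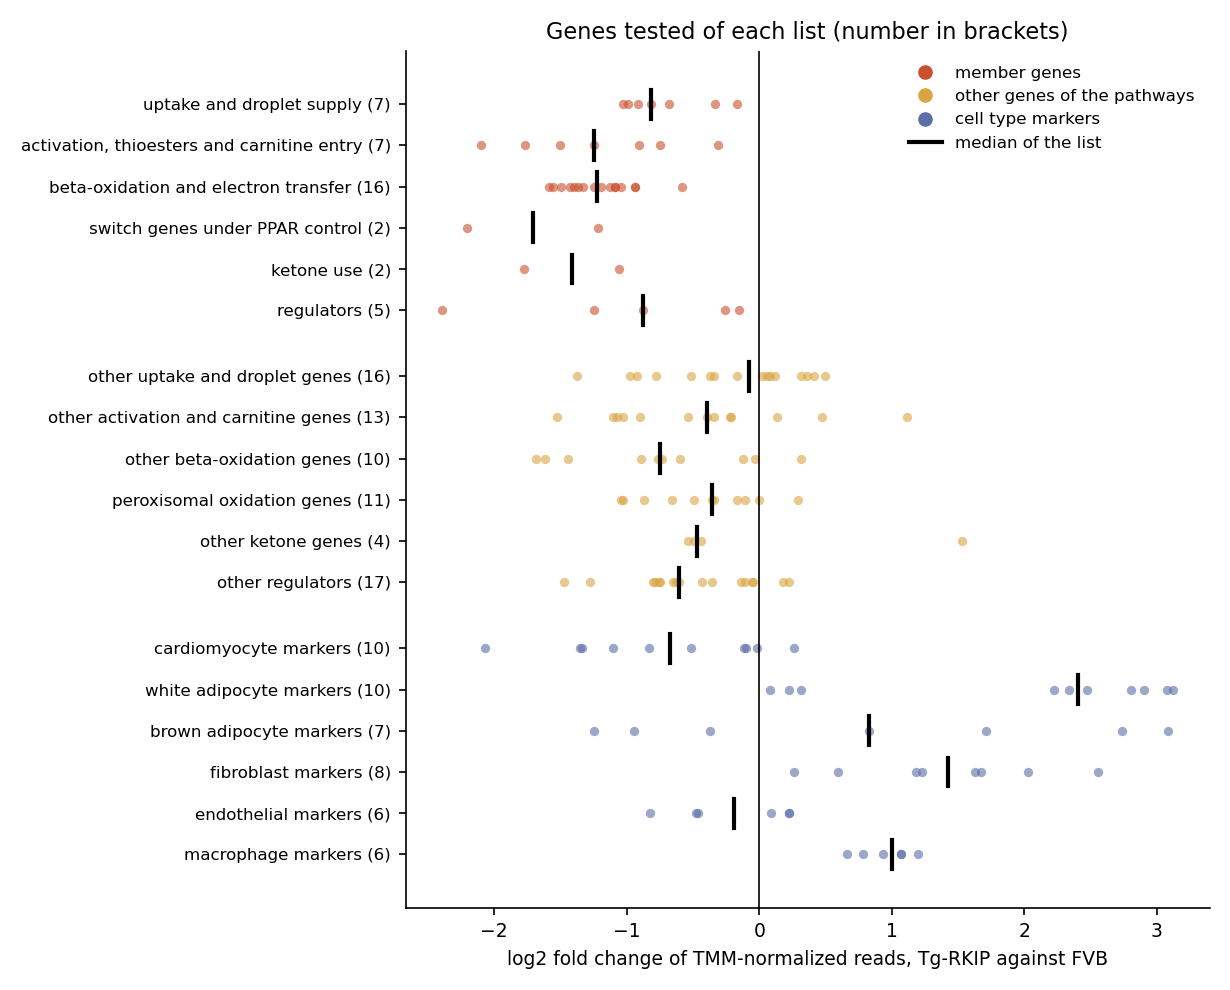
The log2 fold change of TMM-normalized reads in Tg-RKIP against FVB (horizontal axis, 3 libraries per group) of every gene tested in each list, as points, with the list's median as a black bar, for the 39 genes by role, the 71 further genes of the pathways and 6 lists of cell type markers. The medians of the 6 roles lie between -1.71 and -0.82, that of the cardiomyocyte markers at -0.67 and that of the white adipocyte markers at 2.41.

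Of the 39 genes, 21 had no 50-base window of their main transcript in another gene of GENCODE M21. In 9 the share was over 10%, and their levels are uncertain as far as the counting, which is not given, could split reads: Cpt1b 93.0% (with Gm44502), Etfb 67.3%, Hadhb 62.9%, Fabp3 37.3%, Acot2 27.7%, Acot1 26.4%, Acadvl 24.0% (with Dvl2), Eci2 14.3% and Oxct1 12.0%. The tables hold sharing genes for Cpt1b, Acot1, Acot2, Acadvl, Eci2 and Oxct1, and summed with these the 6 genes kept their direction and side of the threshold in the 3 comparisons, with Cpt1b at -0.74 and Acadvl at -1.35 in Tg-RKIP against FVB. Etfb, Hadhb and Fabp3 were not tested in this way. By transcript, the main coding form Hadhb_5 held 93.9% ± 1.15 of Hadhb reads in Tg-RKIP and 94.8% ± 2.11 in FVB, and the retained-intron form Slc27a1_5 held 42.8% ± 2.54 of Slc27a1 reads in Tg-RKIP and 28.7% ± 2.70 in FVB.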

How the data were processed

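RNA from 9 hearts, 3 per group, was sequenced as single reads of 50 bases after mRNA fragmentation and random priming. The authors deposited read counts, whole numbers per transcript without normalization, and TPM values for 127558 Ensembl transcripts. The submitters' processing notes name GRCm39. The aligner and the counting program are not given in the sources used here, nor whether strand was used. Deposited TPM equalled TPM recomputed from counts and lengths to a relative difference of 0.00326 or less.

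Counts and TPM were summed by gene name. The test of counts was that of edgeR 4.0.16 in R 4.3.3 (TMM, filterByExpr, glmQLFit and glmQLFTest, 1 mean per group over all 9 libraries), with Benjamini-Hochberg adjustment across the 15504 genes and a threshold of 0.05. Groups are called without overlap where every library of 1 lies above every library of the other. An exact two-sided permutation test of 3 libraries against 3 cannot go below 0.1 and was not used for calls. Normalized reads are counts scaled by TMM. Values carry SD over 3 libraries and log2 fold changes their standard error. Depth was 25458108 to 33447654 reads per library. The median squared difference between libraries of a group was 1.37 to 1.52 times that of sampling noise, and no library was counted as a copy of another.

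The 39 genes, the 71 further pathway genes and the marker lists were chosen with earlier results of these data known. All 39 could be named. Of the further genes, the 5 highest and 5 lowest fold changes past the threshold with a mean of at least 100 reads in the higher group were named for Tg-RKIP and for the libraries labelled Tg-GRK2 against FVB, and some of them are not reported here. The edgeR script was tested on simulated data with known changes.

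Alternatives were DESeq2 size factors, library size only and TMM without mitochondrially encoded genes, DESeq2 1.42.0, other filters, the replicate number as a block, only the groups compared, each library left out, limma 3.58.1 on log2(TPM + 0.1) and log2(TPM + 1), a fold change of at least 1.5 with glmTreat, and the most abundant transcript. Summing members with genes that share windows of 50 bases, and limma on TPM rescaled without mitochondrially encoded genes, were added after the data were seen.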

Additional observations from a re-analysis of the deposited data

Results flagged for a closer look

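The effects against FVB differed between Tg-RKIP hearts and those labelled Tg-GRK2 by a direct test of these 2 groups. In Tg-RKIP against the libraries labelled Tg-GRK2, 37 of the 39 genes passed the threshold of edgeR's quasi-likelihood test, while 74.5% of all genes tested did. For 3 genes the calls against FVB went in opposite directions. Acsl1 was lower in Tg-RKIP and higher in the libraries labelled Tg-GRK2, and the difference between them was -1.58 (log2). Acads did the same with a difference of -1.05. Esrra did the same in normalized reads with a difference of -0.38, and in log2(TPM + 1) its difference was 0.03.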

How the results depend on the processing

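In Tg-RKIP against FVB the count of 39 lower genes held in every setting run except library size only and limma on log2(TPM + 0.1), on the same without a filter and on log2(TPM + 1), which gave 34 lower and 3 higher (Pnpla2, Ppard, Esrra), a fold change of at least 1.5 (33 lower) and the most abundant transcript (38 lower, without Angptl4). Among all genes tested, library size only and the 3 limma settings, in that order, called 17.1%, 14.6%, 7.83% and 14.5% lower. They called 62.6%, 66.3%, 36.9% and 66.4% higher. A fold change of at least 1.5 called 10.9% lower and the most abundant transcript 29.8%. In the 4 scalings, library size only and the 3 limma settings in that order, 5 genes reversed. Angptl4 had a log2 fold change of 0.0445, 0.10, 0.10 and 0.085, Cpt1a 0.0674, 0.11, 0.11 and 0.10, Esrra 0.22, 0.23, 0.23 and 0.23, Pnpla2 0.21, 0.25, 0.25 and 0.25, and Ppard 0.12, 0.17, 0.17 and 0.15. With the mitochondrially encoded genes left out of log2(TPM + 1) the counts were 39 lower and 0 higher, beside 31.0% and 40.1% of all genes.

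In Tg-RKIP against the libraries labelled Tg-GRK2, the count of higher genes was 4 by library size only, 3 in each limma setting on all TPM and 0 for a fold change of at least 1.5. Of all genes tested, 62.0%, 34.9% to 63.7% and 13.1% were higher in these settings. In the 4 scalings Cpt1a had 0.33, 0.33, 0.33 and 0.31, Pdk4 0.0555, 0.0571, 0.0571 and 0.0565, Pnpla2 0.33, 0.34, 0.34 and 0.34, Ppard 0.0457, 0.0553, 0.0553 and 0.0517, and Esrra 0.0276, 0.0276 and 0.0273 in the 3 limma settings. In the libraries labelled Tg-GRK2 against FVB, higher genes numbered 5 and lower genes 18 in the limma settings, the one without mitochondrially encoded genes included, except 15 lower without a filter, and 0 higher and 1 lower passed for a fold change of at least 1.5. Of all genes tested, the limma settings called 5.19% to 13.1% higher and 2.36% to 6.05% lower, and that fold change 0.529% and 0.471%. DESeq2's Wald test gave 24 lower and 3 higher there, without Acadm, Cd36 and Ehhadh, and DESeq2 size factors and library size only each gave 26 lower and 4 higher, without Acadm and with Cpt2. Acadm was 0.10 in all limma settings, and the most abundant transcript gave 18 lower and 2 higher, with 9 calls lost and Cd36 at 0.0459. The cause of these changes was not tested.

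Leaving out single libraries gave 39 lower genes and 0 higher in Tg-RKIP against FVB each time, 24 to 27 lower and 3 to 4 higher in the libraries labelled Tg-GRK2 against FVB, where Acadm, Cd36, Ehhadh and Slc27a1 lost their call without at least 1 library and Ppara (0.16) and Plin5 (-0.09) gained one, and 36 to 37 lower and 1 higher in Tg-RKIP against the libraries labelled Tg-GRK2. With single libraries left out, 35.3% to 36.9%, 9.6% to 12.0% and 34.5% to 36.3% of all genes were lower in the 3 comparisons in that order. Over all genes tested in Tg-RKIP against FVB, 5709 calls were higher and 5751 lower, but 9710 and 2649 by library size only and 1975 and 1690 for a fold change of at least 1.5. Equal replicate numbers did not deviate together (correlations from -0.03 to 0.04), and a replicate block gave the same counts, 39 lower and 0 higher, 27 and 3, and 36 and 1, with no call of the 39 changed. The largest standard errors of the 39 in Tg-RKIP against FVB were those of Acot1, Angptl4, Ppargc1b, Ehhadh and Ppara, genes with few reads, and whether depth sets them was not tested.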
